A study of Mus musculus with 6 samples.

Results

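The genes described here are the IL-6 family cytokines Il6, Il11 and Lif, the receptor chains Il6ra, Il6st, Lifr and Osmr, the transcription factor Stat3 and the inhibitors Socs3 and Socs1. They were taken by symbol from a table of gene expression, and each of the 10 symbols was found once among 53797 genes. The table compares MLO-Y4 cells, an osteocyte-like cell line of the mouse, after low-intensity pulsed ultrasound (LIPUS) with MLO-Y4 cells that received none (Control). There were 3 samples in each group. The LIPUS cultures were stimulated for 20 min at 1.5 MHz and 30 mW/cm2, and according to the methods RNA was isolated 30 min afterwards, while the Control cultures stood in wells of the same plates above transducers that were not connected. Both groups were the same immortalised line, kept in α-MEM with fetal bovine serum and seeded on collagen, so neither contains the mineralised matrix or the neighbouring cells of bone. The comparison addresses which genes of this osteocyte-like line differ in level within the first hour of a mechanical stimulus that is used clinically on fractures.

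Cytokines of the IL-6 family signal through gp130, the shared receptor chain encoded by Il6st. Each ligand first meets a chain of its own, the IL-6 receptor for IL-6, the IL-11 receptor for IL-11 and the LIF receptor for LIF, and the assembled complex activates Janus kinases, which phosphorylate STAT3. Phosphorylated STAT3 enters the nucleus and turns on genes that include Socs3, and SOCS3 protein then binds gp130 and shuts the signal down. In bone, these cytokines act on osteoblasts and, through RANKL, on the formation of osteoclasts, and mice without the IL-11 receptor or gp130 signalling have altered bone mass.

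The table holds for each gene 1 FPKM (fragments per kilobase of exon, scaled to the mapped fragments of a library) for LIPUS and 1 for Control, each pooled over the group's libraries. No value of a single library was available, so no SD, no test and no depth per library are given, and whether a library stood apart or carried a difference alone could not be examined. The study describes a Control replicate that differed from the others in its group. It proposes that ultrasound leaking into Control wells of the same plate may have led to this variation. Neither such leakage nor the part of that replicate in the pooled Control values was tested. A difference is given as the ratio of the pooled values and as log2((LIPUS FPKM + 1)/(Control FPKM + 1)), here called the log2 ratio. A gene is called past the fold when this log2 ratio reached 1.5-fold in size, among the 11999 genes with an FPKM of at least 1 in a group. Of these genes, 6.70% were past the fold in the higher direction with LIPUS and 6.79% in the lower direction, and their median log2 ratio was -0.00038. In bulk RNA, a change in the number of cells that express a gene and a change in RNA per cell cannot be told apart.

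Promoter stretches are shown first, for the genes with a match to a searched motif. Whether a motif has a part in the differences described below was not tested. Sequences are from RefSeq on GRCm38.p6, which had an entry for all 10 genes and 12 start sites, and are written 5′ to 3′ on the strand of the gene, with matches to a motif in capitals. Both strands of the 250 bases before each start were searched.
Il6, chr5:30012864-30013089, + strand: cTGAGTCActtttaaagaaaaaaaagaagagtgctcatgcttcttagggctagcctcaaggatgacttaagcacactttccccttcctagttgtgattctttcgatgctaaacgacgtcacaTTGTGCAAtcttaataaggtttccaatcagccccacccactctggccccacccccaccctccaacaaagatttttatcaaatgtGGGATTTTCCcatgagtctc
Il11, chr7:4778223-4778249, - strand: ggagggagggTGAGTCAggatgtgtca
Lif, chr11:4257330-4257409, + strand: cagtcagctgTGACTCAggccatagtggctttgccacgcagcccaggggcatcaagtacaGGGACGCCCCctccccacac
Socs3, chr11:117969502-117969557, - strand: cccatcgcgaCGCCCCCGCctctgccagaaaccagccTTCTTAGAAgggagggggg
Socs1, chr16:10785594-10785629, - strand: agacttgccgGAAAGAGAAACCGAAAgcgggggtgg
Lifr, chr15:7129471-7129499, + strand: ggagaaggctGCGGGGGCGcgcggggcgg

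The AP-1 motif TGANTCA was found upstream of Il6, Lif and the second of 2 RefSeq starts of Il11, which are the 3 ligand genes and no other members. It was also present in 6.75% of all 32851 windows of this length. The NF-kB motif was found before Il6 and Lif and in 7.25% of all windows. Il6 also held the C/EBP motif TTGNGCAA, found in 2.61% of windows, 128 bases before its start. The window of Socs3 held the only STAT motif, TTCNNNGAA, among the members, 154 bases before the start, and this motif was in 7.02% of all windows. Socs3 and Lifr held the Egr motif GCGNGGGCG, which was in 4.70% of all windows. Socs1 held 2 overlapping matches to the interferon-stimulated response element (GAAA, any 2 bases, GAAA), an element typical of interferon-induced genes, which 2.98% of windows held. The CRE motif TGACGTCA was in none of the members' windows and in 1.55% of all windows. No match to one motif overlapped a match to another, and no motif was matched before Il6ra, Il6st, Osmr, Stat3, the other start of Il11 or the other start of Lifr. Over the 11368 windows of genes with at least 1 FPKM, which is the background of the expression values, the shares were 4.32% for AP-1, 8.78% for NF-kB, 2.18% for C/EBP, 5.58% for STAT, 8.96% for Egr, 2.66% for the interferon element and 2.64% for CRE. The Egr share was thus higher among expressed genes than among all windows, and the AP-1 share lower. A match describes letters in the reference sequence and is not a bound site.

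**Figure D1:**
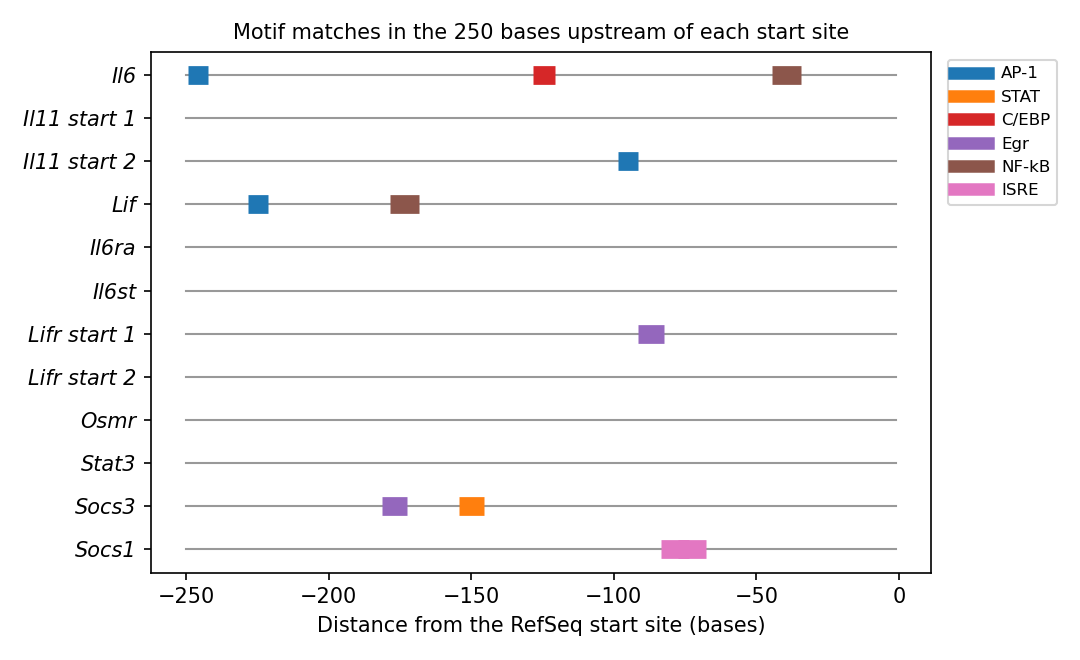
Positions of motif matches in the 250 bases upstream of each RefSeq start of the 10 genes, with distance from the start in bases on the horizontal axis and 1 line per start. AP-1 matches lie before Il6, Lif and the second start of Il11, and the STAT match lies before Socs3.

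The 3 ligand genes were all higher in the LIPUS value. Il6 (ENSMUSG00000025746, chr5:30013114-30019981) encodes IL-6, a cytokine of inflammation and bone resorption. Its level was 8.98 FPKM in Control and 16.5 FPKM in LIPUS, a ratio of 1.84 and a log2 ratio of 0.81. Among the 4211 genes with a mean level of 5 to 20 FPKM, 2.26% had a log2 ratio at least as high, and 5.41% were past the fold in the higher direction. By level, Il6 was gene number 7040 in Control and number 5042 in LIPUS, so that it was a gene of moderate abundance in both.

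Il11 (ENSMUSG00000004371, chr7:4772373-4782859) encodes IL-11, a cytokine that osteoblast-lineage cells make under mechanical load. It was the most abundant of the 10 genes, with 457 FPKM in Control and 557 FPKM in LIPUS, and stood at number 186 and number 173 of all genes. The ratio was 1.22 and the log2 ratio 0.29, under the fold. Of the 952 genes with a mean level of 100 FPKM or more, 12.0% had a log2 ratio at least as high. In absolute terms the Il11 difference of 100.3 FPKM was the largest of the family, against 7.51 FPKM for Il6.

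Lif (ENSMUSG00000034394, chr11:4257557-4272514) encodes leukaemia inhibitory factor. Its level was 122 FPKM in Control and 170 FPKM in LIPUS, a ratio of 1.39 and a log2 ratio of 0.47, also under the fold. Among the genes of 100 FPKM or more, 5.46% had a log2 ratio at least as high and 3.05% were past the fold in the higher direction. Il11 and Lif were therefore far above Il6 in level in both groups, while Il6 had the highest ratio of the 3.

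The receptor chains did not share a direction. Il6st (ENSMUSG00000021756, chr13:112464070-112510086), the gp130 gene, had the highest level of the receptors, 47.5 FPKM in Control and 49.7 FPKM in LIPUS. Its log2 ratio of 0.06 was near that of the median gene, with 39.3% of the 3489 genes of 20 to 100 FPKM at least as high. Osmr (ENSMUSG00000022146, chr15:6813577-6874969) encodes the oncostatin M receptor chain that pairs with gp130. It had 30.5 FPKM in Control and 26.8 FPKM in LIPUS, a log2 ratio of -0.18, and 20.3% of genes in the same range of levels were as low or lower.

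Il6ra (ENSMUSG00000027947, chr3:89864059-89913196) encodes the chain that binds IL-6 itself, and its level was low, 3.32 FPKM in Control and 2.82 FPKM in LIPUS. The log2 ratio was -0.18, and 36.8% of the 3347 genes under 5 FPKM were as low or lower. Lifr (ENSMUSG00000054263, chr15:7090614-7197489) encodes the LIF receptor chain, which the OSM, cardiotrophin and CNTF receptor complexes also use. It had the lowest level of the family in both groups, 0.498 FPKM in Control and 1.81 FPKM in LIPUS. The ratio of 3.64 was the highest of the 10, but the log2 ratio was 0.91 with the pseudocount of 1 FPKM and 1.68 with 0.1 FPKM, since the Control value lay under the pseudocount. Of the genes under 5 FPKM, 6.69% had a log2 ratio at least as high, and 13.8% were past the fold in the higher direction. Il6ra and Lifr were also the 2 members that the table marks NOTEST, the status of genes with too little signal for the comparison program, whereas the other 8 were marked OK. Every gene marked OK reached at least 6.70 FPKM in a group, a level that neither Il6ra nor Lifr had.

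Since FPKM is per length, ligand and receptor levels can be set side by side. Il6 mRNA was 2.71 times the Il6ra level in Control and 5.84 times in LIPUS. This ratio rests on the low Il6ra levels of 3.32 FPKM in Control and 2.82 FPKM in LIPUS, marked NOTEST. Lif was 245 times the Lifr level in Control and 93.6 times in LIPUS, with both values of this ratio resting on the low Lifr levels. Il11 was 45.5 times the level of Il11ra1, the gene of the IL-11 receptor chain, in Control and 40.4 times in LIPUS. Il6st exceeded Osmr by 1.56 times in Control and by 1.85 times in LIPUS. Thus Il6, Il11 and Lif were each above their own receptor chain in level, and the shared chain Il6st was above each of Il6ra, Lifr and Osmr.

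Stat3 (ENSMUSG00000004040, chr11:100885098-100939540), the transcription factor that carries the signal, had 64.1 FPKM in Control and 69.6 FPKM in LIPUS. The ratio was 1.09 and the log2 ratio 0.12, with 30.9% of genes of 20 to 100 FPKM at least as high. The mRNA level does not measure phosphorylation, the step at which IL-6 family signals act on STAT3.

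Both inhibitors were past the fold in the higher direction. Socs3 (ENSMUSG00000053113, chr11:117966079-117970047), the feedback inhibitor that binds gp130, had 73.2 FPKM in Control and 119 FPKM in LIPUS. The ratio was 1.63 and the log2 ratio 0.70, and its position by level went from number 1319 to number 797. Of the 3489 genes with a mean of 20 to 100 FPKM, 2.44% were past the fold in the higher direction, and 1.52% had a log2 ratio at least as high as Socs3. Socs1 (ENSMUSG00000038037, chr16:10782240-10785536), which inhibits Janus kinases directly and is best known from interferon signalling, had 6.71 FPKM in Control and 11.0 FPKM in LIPUS. Its ratio was 1.65 and its log2 ratio 0.64, with 4.18% of genes of 5 to 20 FPKM at least as high. Socs3 was 10.9 times as abundant as Socs1 in Control and 10.8 times in LIPUS, so the 2 inhibitors kept nearly the same proportion.

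**Figure D2:**
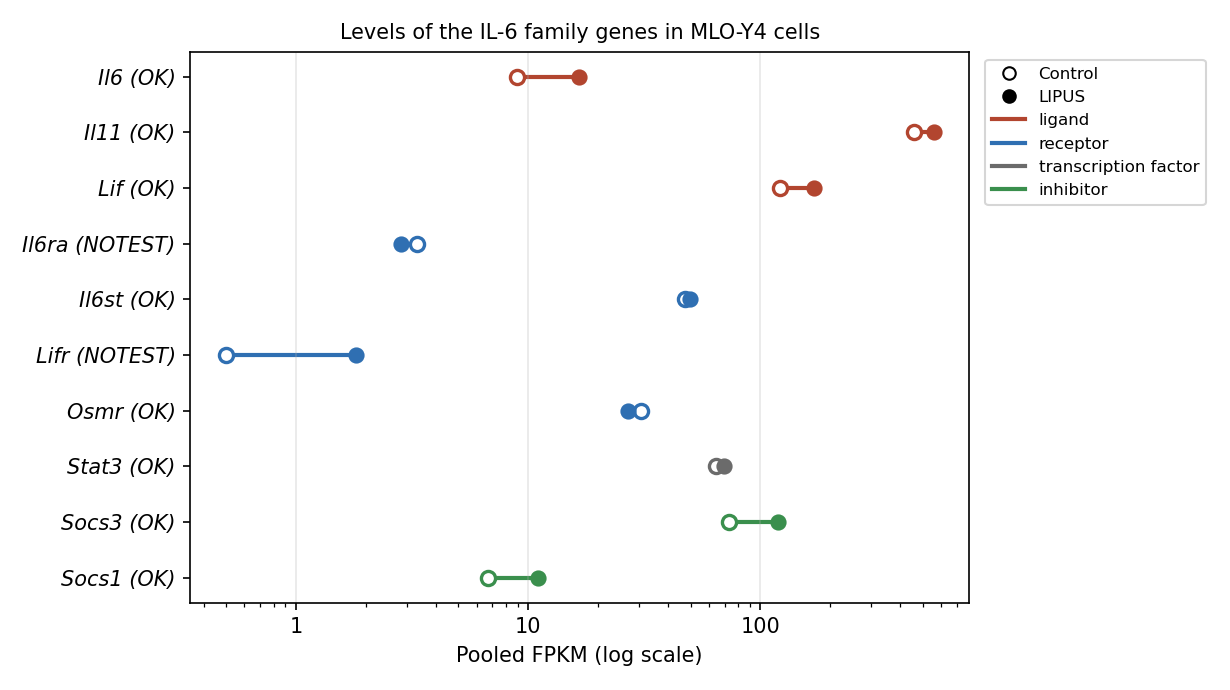
Pooled FPKM of the 10 genes on a log scale, with open circles for Control and filled circles for LIPUS, coloured by role and with the status given by the table in brackets. Il6, Socs3, Socs1 and Lifr have the widest gaps, and Il6st and Stat3 the narrowest.

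Across the 10 genes, 8 had a higher value in LIPUS and 2 a lower one. Of all 11999 genes, 5995 had a log2 ratio above 0 and 6004 below. In the higher direction 4 of 10 were past the fold (Il6, Lifr, Socs3 and Socs1), beside 6.70% of all genes, and 0 of 10 were past it in the lower direction, beside 6.79%. The median log2 ratio of the 10 was 0.38. All 10 reached the minimum of 1 FPKM, Lifr only through its LIPUS value. Ordered by level, the genes ran Il11, Lif, Socs3, Stat3, Il6st, Osmr, Il6, Socs1, Il6ra and Lifr, in the same order in both groups. Without replicate values it cannot be said which neighbours in this order differ beyond their spread, and by ratio the closest neighbours in Control were Socs3 and Stat3, at 73.2 and 64.1 FPKM.

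**Figure D3:**
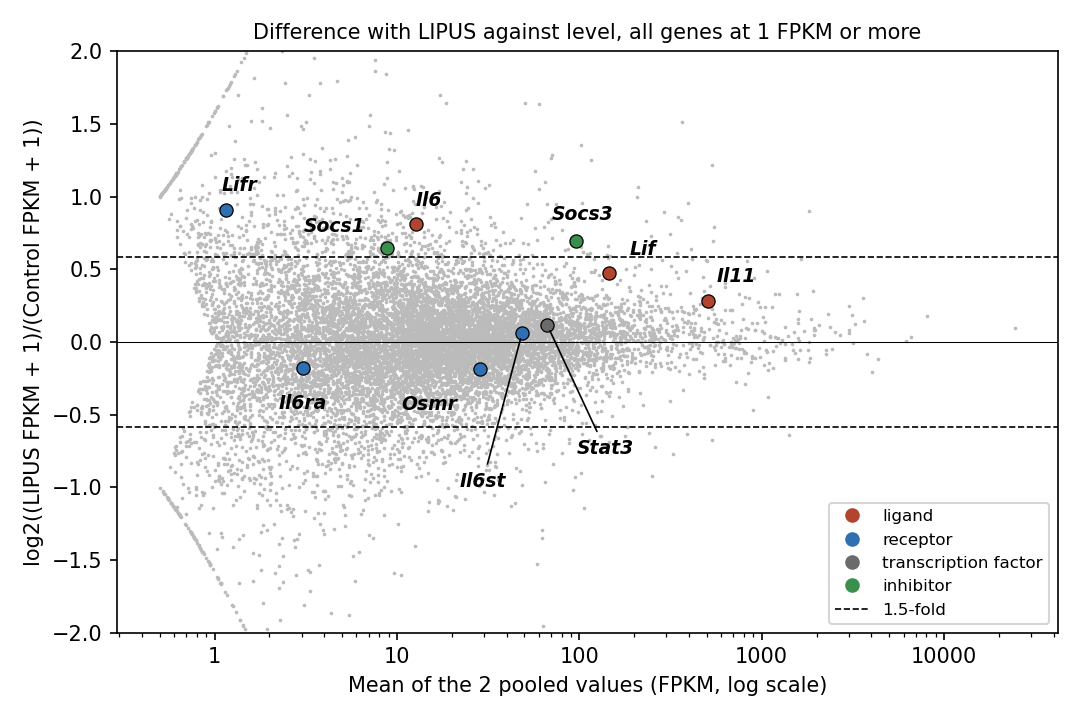
Log2 ratio (LIPUS over Control) against the mean of the pooled values on a log scale for all genes with at least 1 FPKM in a group (grey) and the 10 IL-6 family genes (coloured by role), with dashed lines at 1.5-fold; 48 genes beyond a log2 ratio of 2 in size lie outside the axis. The grey cloud narrows with level, and Il6, Socs1, Socs3 and Lifr lie above the upper line.

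The 3′ untranslated regions of the ligands hold AU-rich elements, which recruit proteins that shorten the life of an mRNA. In GENCODE M21 transcripts, the heptamer TATTTAT occurred 1 time in Il6, 6 times in Il11, 5 times in Lif and 2 times in Socs3, and in none of the other 6 members. Of 10061 genes with at least 1 FPKM and a 3′ untranslated region of at least 100 bases, 29.3% held it. Stretches of 30 bases with the heptamer in capitals are given on GRCm38, 5′ to 3′ on the strand of the gene.
Il6, chr5:30019728-30019757, + strand: tttatgattgaTATTTATtatttttatgaa
Il11, chr7:4773501-4773530, - strand: aaaccagatctTATTTATTTATTTATtttg
Lif, chr11:4270469-4270498, + strand: gcacagctgtcTATTTATtactatgtccta
Socs3, chr11:117966138-117966167, - strand: ctttgcacataTATTTATATTTATactcag
The core pentamer ATTTA had a density of 14.1 per kb in Il6, and 0.248% of the genes had one as high. In Il11 the density was 8.38 per kb, with 1.39% of genes as high. Lif, with 7 pentamers in 3180 bases, and Socs3, at 2.71 per kb, were closer to the median of all genes, 1.35 per kb, and Socs1 held none. Among the genes with the heptamer, Il6 and Socs3 were past the fold and Il11 and Lif were under it. Lifr and Socs1, which lack the heptamer, were past the fold as well. Whether the heptamer goes with the differences was not tested.

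The other ligands of the family ranged from 0 to the level of Clcf1. Of 8 listed, 4 (Ctf2, Il27, Ebi3 and Il31) were at 0 in both groups and 2 reached 1 FPKM. Neither was past the fold, beside 6.70% of all genes in the higher direction and 6.79% in the lower. Clcf1, which encodes a cytokine that signals through the CNTF receptor complex, was the most abundant, with 72.4 FPKM in Control and 91.2 FPKM in LIPUS. Its log2 ratio of 0.33 lay between those of Il11 and Lif. Cntfr, the specific chain of that complex, was listed at 0 in both groups. Ctf1, a cardiotrophin gene, had 4.59 FPKM in Control and 3.13 FPKM in LIPUS, a log2 ratio of -0.43. Cntf was low in both groups, at 0.588 FPKM in Control and 0.480 FPKM in LIPUS. Osm, which lies 16.5 kb from Lif on the same chromosome, was listed at 0 in Control and had 0.817 FPKM in LIPUS, so the receptor gene Osmr was measured at a far higher level than its ligand.

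Of 7 other receptor and receptor-shedding genes, 3 reached 1 FPKM. None was past the fold, beside 6.70% of all genes in the higher direction and 6.79% in the lower. Adam10, a protease that releases receptor ectodomains, was the most abundant, at 39.6 FPKM in Control and 32.4 FPKM in LIPUS. Il11ra1 had 10.0 FPKM in Control and 13.8 FPKM in LIPUS, a log2 ratio of 0.42. Il27ra was the lowest of those above 0, at 0.931 and 0.928 FPKM. Osmr and Lifr are neighbours on chromosome 15, 216 kb apart, and their log2 ratios had opposite signs. Il31ra, 9.81 kb from Il6st, was at 0 in both groups.

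Among 9 further Janus kinase and Stat genes, 8 reached 1 FPKM. None was past the fold in the higher direction, beside 6.70% of all genes, and 1 was past it in the lower one, beside 6.79%. This was Stat2, which transmits interferon signals, at 23.2 FPKM in Control and 12.6 FPKM in LIPUS with a log2 ratio of -0.83. Jak1, the kinase most used by gp130, was the most abundant of the list in both groups, with 60.4 FPKM in Control and 74.1 FPKM in LIPUS, a log2 ratio of 0.29. Tyk2 was the least abundant of those measured above 0, at 2.36 FPKM in Control and 3.82 FPKM in LIPUS.

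The 13 other inhibitors of cytokine signalling, which include further Socs, Pias and tyrosine phosphatase genes, had 12 members at 1 FPKM or more and a median log2 ratio of 0.04. None of the 12 was past the fold in the higher direction, beside 6.70% of all genes, and 1 was past it in the lower one, beside 6.79%. Ptpn1 was the most abundant, at 81.4 FPKM in Control and 66.7 FPKM in LIPUS. Socs2, the next most abundant Socs gene after Socs3, had 31.7 FPKM in Control and 27.3 FPKM in LIPUS. Ptpn6, a phosphatase typical of blood cells, had the lowest level above 0 and was past the fold in the lower direction, from 1.02 FPKM in Control to 0.206 FPKM in LIPUS, and it was marked NOTEST and reached 1 FPKM only through its Control value. Cish was at 0 in both groups. All 5 genes of the Ras-MAPK arm of gp130 were measured. None was past the fold, beside 6.70% of all genes in the higher direction and 6.79% in the lower. The highest of the 5 was Shc1, at 87.1 FPKM in Control and 94.6 FPKM in LIPUS, and the lowest Gab1, at 1.95 and 1.20 FPKM.

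Over these 42 pathway genes together, 30 reached 1 FPKM, 0 were past the fold in the higher direction and 2 in the lower (Stat2 and Ptpn6, the latter kept through its Control value only). Their log2 ratios were above 0 for 15 and below 0 for 15, beside 5995 and 6004 of all genes, with a median of -0.02. With 6.70% of all genes past the fold in the higher direction and 6.79% in the lower, these counts are near the background.

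A list of 22 genes known as Stat3 targets was examined as a readout downstream of the family. The changes of 6 of them were known when the list was written, so its count is no independent evidence of a direction. Of 21 genes at 1 FPKM or more, 5 were past the fold in the higher direction, beside 6.70% of all genes. In the lower direction 2 were past it, beside 6.79%. The median log2 ratio was 0.22, with 15 above 0 and 6 below, beside 5995 and 6004 of all genes. Saa3, which encodes an acute-phase serum amyloid, had 23.9 FPKM in Control and 77.1 FPKM in LIPUS, a log2 ratio of 1.65. Lcn2, the iron-binding lipocalin of inflammation, went from 13.8 FPKM in Control to 34.3 FPKM in LIPUS, a ratio of 2.48. These 2 genes had the highest log2 ratios of the list. Pim1, a kinase gene induced by cytokines, had 7.35 FPKM in Control and 14.3 FPKM in LIPUS, a log2 ratio of 0.87. Junb, an AP-1 subunit, had 415 FPKM in Control and 673 FPKM in LIPUS, a log2 ratio of 0.70. Hp, encoding haptoglobin, had 37.7 FPKM in Control and 61.1 FPKM in LIPUS, a log2 ratio of 0.68. Ccl2, a chemokine gene, was lower in LIPUS, at 23.7 FPKM in Control and 12.9 FPKM in LIPUS with a log2 ratio of -0.83. Nfkbiz, which encodes a nuclear IkB protein, was lower as well, at 27.3 FPKM in Control and 17.3 FPKM in LIPUS with a log2 ratio of -0.63. Timp1 was the most abundant target, at 1497 FPKM in Control and 1668 FPKM in LIPUS, and Icam1 the least, at 0.0795 and 0.0922 FPKM. Without the 6 genes known beforehand, 15 targets reached 1 FPKM, of which 1 (Pim1) was past the fold in the higher direction and 1 (Ccl2) in the lower, shares of 6.67% each that are near those of all genes. Several of these genes also respond to other pathways, and the part of Stat3 in their values was not tested.

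**Figure D4:**
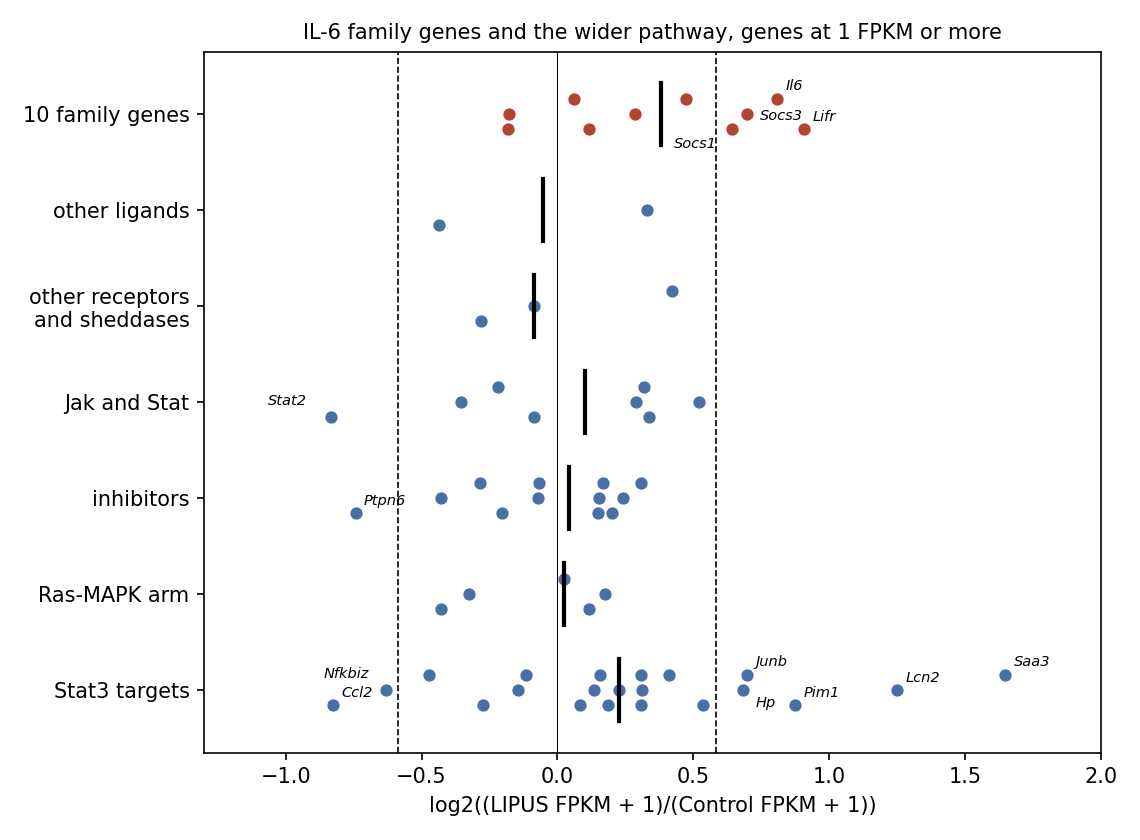
Log2 ratio (LIPUS over Control) of the genes at 1 FPKM or more in the 10-gene family, in 5 lists of other pathway genes and in the Stat3 target list, with 1 point per gene, spread vertically for legibility, a black bar at each median, dashed lines at 1.5-fold and names for genes past the fold. The family median lies at 0.38, the target median at 0.22, and Stat2 and Ccl2 lie farthest to the left.

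The cell label was checked on marker genes. Spp1, the osteopontin gene, had 4514 FPKM in Control and 4158 FPKM in LIPUS and was the most abundant of 11 osteocyte and osteoblast markers. Pdpn, a marker of early osteocytes, had 295 FPKM in Control and 402 FPKM in LIPUS, and Gja1, the connexin 43 gene, had 176 and 170 FPKM. Dmp1 was past the fold in the higher direction, from 3.04 FPKM in Control to 7.65 FPKM in LIPUS, and so was Bglap, listed at 0 in Control and at 1.58 FPKM in LIPUS, which was marked NOTEST and reached 1 FPKM only through its LIPUS value. Alpl was past it in the lower direction, from 293 to 190 FPKM. These were 2 higher and 1 lower of 7 markers at 1 FPKM or more, beside 6.70% and 6.79% of all genes. Phex had the lowest level above 0, at 0.190 FPKM in LIPUS and 0 in Control. The mature osteocyte genes Sost, Mepe and Fgf23 were at 0 in both groups. The cells thus carried markers of the osteoblast lineage and of early osteocytes, and Dmp1 at a low level, but no measured Sost, Mepe or Fgf23.

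Markers of other cells that make or receive IL-6 family cytokines were low. Of 8 blood cell markers, 5 were at 0 in both groups, among them Ptprc, the common leukocyte gene, and Adgre1 and Itgam, which mark macrophages. The summed level of the 8 was 7.56 FPKM in Control and 2.14 FPKM in LIPUS. It rested mostly on Cd68 (5.32 and 1.72 FPKM) and Lyz2 (2.01 and 0.189 FPKM), with Csf1r at 0.236 and 0.233 FPKM. Cd68 and Lyz2, the 2 markers at 1 FPKM or more, were both past the fold in the lower direction, beside 6.79% of all genes. Cd68, Lyz2 and Csf1r were all marked NOTEST, and Lyz2 reached 1 FPKM only through its Control value. The part of these markers in the values of the family was not tested. Of 3 endothelial markers, Pecam1 had 0.496 FPKM in Control and 0 in LIPUS and the other 2 were at 0 in both groups, as were both epithelial markers.

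Overlaps with other genes touched 2 members. Il6ra overlaps the antisense gene Gm42809 over 281 bases, and Gm42809 had 0 FPKM in Control and 0.225 FPKM in LIPUS. Stat3 overlaps Stat5a, on the opposite strand, over 72 bases, and Stat5a had 9.96 FPKM in Control and 9.32 FPKM in LIPUS. The libraries were prepared with a kit that keeps strand, and whether strand was used in the quantification is not given in the sources used here.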

How the data were processed

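Stranded mRNA libraries of 3 LIPUS and 3 Control cultures were made and sequenced as paired-end reads. Per the labels and methods, reads were trimmed by the authors in Trimmomatic 0.36 and mapped to GRCm38 by TopHat2 2.1.0 and Bowtie2 2.2.6.0, and FPKM came from Cufflinks, given as 2.1.1 in the submitters' processing notes and as a later release in the methods. The deposited values are 1 FPKM per gene and group from Cuffdiff, which pools the libraries. The deposited table also holds the authors' own comparison (log2 fold change, statistic, p-value, q-value and a significance call), whose columns were not used. The methods state a common round depth for the samples, which these values do not allow to be checked. Of 793 genes with both values between 0 and 0.3 FPKM, 75 had a LIPUS over Control ratio that rounded to 1.16. Pooled values do not resolve this step into reads.

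Log2 ratios were computed here with a pseudocount of 1 FPKM, which understates changes of low genes, and genes were kept at 1 FPKM or more in a group. The share of genes past 1.5-fold was taken over all kept genes and within levels split at 5, 20 and 100 FPKM. No test was run, since a group has 1 value. The members and gene lists were chosen with earlier results of these data known. In 2 lists, 1 gene each is not reported here and was left out of their counts. Named are all 10 members and, in each list except the other cytokines, the genes past the fold and those of highest and lowest level above 0. Ctf1, Cntf, Osm, Il11ra1, Cntfr, Il31ra, Socs2, Cish, Pdpn, Gja1 and the listed genes at 0, as well as the other cytokines of the closing section, were named after their values were seen. Positions and 3′ untranslated regions (longest coding sequence, then longest transcript) are from GENCODE M21, and promoters from RefSeq.

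Python 3.11.15 with numpy 2.4.6, pandas 2.3.3 and matplotlib 3.10.9 was used. The step that calls genes past the fold was tested on simulated data, and the sequence and list steps were not. The alternatives were pseudocounts of 0.1 FPKM and none, a smaller fold (the higher value 25% above the lower) and a fold of 2, no minimum and a minimum of 10 FPKM, only genes of status OK, centring on the median and, chosen after seeing the data, rescaling to TPM and leaving out 6 Stat3 targets.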

Additional observations from a re-analysis of the deposited data

How the results depend on the processing

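No paired analysis was possible because the table holds 1 pooled value per group. For the same reason no replicate could be left out, no sample could be compared with others of its group, and no depth limit can be given. Of 40 recomputed log2 ratios of the 10 members, 37 stayed within 0.1 on the same side of the fold and none changed sign. The other 3 were those of Lifr, which became 1.68 with a pseudocount of 0.1 FPKM, 1.86 with none and 1.10 after rescaling to TPM. The 4 members past the fold were the same genes under both pseudocounts, without a minimum, after centring and after rescaling. At a smaller fold, with the higher value 25% above the lower, Lif joined them, making 5 of 10. With a minimum of 10 FPKM or status OK only, Lifr left, making 3 of 8 members kept. At 2-fold there were 0 of 10. Of the 42 pathway genes, 1 was past the fold in the higher direction with a pseudocount of 0.1 FPKM and with no pseudocount. The count was also 1 with no minimum and after rescaling to TPM, and 4 of 30 at the smaller fold. It was not the same gene throughout, being Tyk2 (ratio 1.62) with no pseudocount and Osm (log2 ratio 0.86) with no minimum. In the lower direction 7 of 30 were past the smaller fold and 0 of 30 past 2-fold. At 1.5-fold, 1 was lower with a minimum of 10 FPKM and 1 of 23 with status OK only. Of 21 Stat3 targets, 2 were higher and 0 lower at 2-fold. Without the 6 genes whose changes were known, 1 of 15 was higher and 1 lower. Of all 11999 genes, 1901 were higher and 1957 lower at the smaller fold, and 259 and 250 at 2-fold. Among the 8145 genes of status OK, 333 were higher and 323 lower. With a minimum of 10 FPKM, 266 were higher and 249 lower. The number of genes kept by that minimum was not counted, so no share is given for it. Rescaling to TPM gave 1019 higher and 1291 lower genes. Stricter folds and filters keep fewer genes by construction.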

Other observations

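Other cytokines of bone and inflammation were looked up after the values of the IL-6 family had been seen. Of 15 genes, 7 reached 1 FPKM, 1 was past the fold in the higher direction and 0 in the lower, beside 6.70% and 6.79% of all genes, and the median log2 ratio of the 7 was 0.26. The gene past the fold was Il1rn, which encodes the antagonist of the IL-1 receptor, with 8.25 FPKM in Control and 16.8 FPKM in LIPUS, a log2 ratio of 0.95. The IL-1 genes Il1a and Il1b were at 0 in both groups, as were Tslp and Csf3. Csf1, which encodes the growth factor of osteoclast precursors, was the most abundant, with 2296 FPKM in Control and 2212 FPKM in LIPUS. Tnf had 3.12 FPKM in Control and 4.93 FPKM in LIPUS, and Il33 had 2.04 and 3.49 FPKM, both under the fold on the scale with the pseudocount. Il18 was lower in LIPUS, at 8.70 FPKM in Control and 6.81 FPKM in LIPUS. Il11 and Lif thus had higher levels in both groups than each of these cytokine genes except Csf1.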
